A study of Rattus norvegicus with 2 samples.

Results

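Adenylyl cyclases make cyclic AMP (cAMP) and phosphodiesterases break down cAMP and cyclic GMP (cGMP). The genes described here are those whose annotated name starts with Adcy or Pde followed by a number, with peaks of any class. Of 8094 gene names in the peak annotation, 19 matched, and they carried 98 of 28706 peaks. They comprise 5 adenylyl cyclases with 24 peaks, 11 catalytic phosphodiesterases with 66 peaks, and 3 other name matches with 8 peaks. The last 3 encode no catalytic subunit that acts on cyclic nucleotides. These 3 are Pde4dip (myomegalin, a centrosome and Golgi protein), Pde6h (an inhibitory subunit of the cone photoreceptor enzyme) and Pde12 (a phosphodiesterase that cleaves oligoadenylates and poly(A) tails). They were counted under the name rule and kept apart from the catalytic families.

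The peaks came from chromatin immunoprecipitation followed by sequencing (ChIP-seq) of myocardium from male Wistar rats after constriction of the abdominal aorta with a wire of 0.7 mm, an operation that loads the heart with pressure. The antibody is labelled by vendor and catalogue number, and its target was taken to be lactylation of lysine 18 of histone H3 (H3K18la), a lactate-derived histone mark, because the series title names it. One group was analysed, with 1 ChIP library, labelled replicate 3. Its input library carried no values here. No unoperated or other comparison group was analysed. The labels give no genotype, age, time after surgery or number of animals for the chromatin, and do not say whether nerve stimulation was given. The question answered is therefore where the mark was called at these genes in the operated heart, and no value has a replicate error or a test.

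In the cardiomyocyte, beta-adrenergic receptors act through the stimulatory G protein on adenylyl cyclases, and the resulting cAMP activates protein kinase A, EPAC exchange factors and Popeye proteins. Nitric oxide and natriuretic peptides raise cGMP through guanylyl cyclases. Phosphodiesterases differ in which nucleotide they hydrolyse and where they sit in the cell, and this keeps each signal local. Histone lactylation, like histone acetylation, has been described mainly at active promoters and enhancers.

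Whole-tissue chromatin mixes cell types. Of 12 cardiomyocyte markers, 9 had a named peak (all but Myh6, Ryr2 and Ttn), as did 6 of 8 endothelial, 1 of 6 fibroblast, 2 of 7 smooth muscle and pericyte, 1 of 6 immune and 2 of 5 neuronal markers. Over all 23154 protein-coding genes, 27.1% had a named peak, and the exact intervals of the last 4 lists include that share. A smaller share of cells with the mark and less mark in each cell cannot be told apart. Fold enrichment, a ratio over the peak caller's local background, and q are the authors' own values for each peak, and serve only to describe and rank peaks. A gene without a peak had no call under its name, at a sequencing depth that is unknown.

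The windows below show the sequence at the start of 5 genes that had a peak centred within 1000 bp of an annotated start and a single promoter window in RefSeq. They are RefSeq windows of build GRCr8, from 250 bases before to 50 after the start, written 5′ to 3′ on the gene's strand. Capitals mark the GC box (GGGCGG or its complement CCGCCC) and the short cAMP response element (TGACG or CGTCA), the core bound by CREB. They lie at chr15:33251977-33252276 (minus strand) for Adcy4, chr11:79123294-79123593 (minus) for Adcy5, chr10:11645595-11645894 (plus) for Adcy9, chr1:144575219-144575518 (plus) for Pde8a and chr16:1932334-1932633 (minus) for Pde12.
Adcy4: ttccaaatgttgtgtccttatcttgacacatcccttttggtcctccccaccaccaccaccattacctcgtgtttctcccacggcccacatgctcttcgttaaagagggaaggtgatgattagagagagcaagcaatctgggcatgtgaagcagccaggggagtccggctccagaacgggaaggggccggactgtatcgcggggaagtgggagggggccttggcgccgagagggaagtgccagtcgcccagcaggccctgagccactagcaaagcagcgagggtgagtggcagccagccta
Adcy5: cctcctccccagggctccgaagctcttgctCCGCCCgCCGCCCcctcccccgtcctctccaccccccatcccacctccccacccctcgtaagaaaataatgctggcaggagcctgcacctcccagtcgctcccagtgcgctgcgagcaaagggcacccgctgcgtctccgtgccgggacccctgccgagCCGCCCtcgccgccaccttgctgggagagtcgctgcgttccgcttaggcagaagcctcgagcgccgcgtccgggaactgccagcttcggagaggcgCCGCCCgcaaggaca
Adcy9: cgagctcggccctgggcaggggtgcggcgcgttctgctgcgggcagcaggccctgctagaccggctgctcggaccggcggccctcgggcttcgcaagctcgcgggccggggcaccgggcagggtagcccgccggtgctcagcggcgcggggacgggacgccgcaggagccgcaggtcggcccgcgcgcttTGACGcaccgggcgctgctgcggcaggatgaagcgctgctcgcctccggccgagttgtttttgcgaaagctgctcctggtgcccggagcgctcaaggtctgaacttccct
Pde8a: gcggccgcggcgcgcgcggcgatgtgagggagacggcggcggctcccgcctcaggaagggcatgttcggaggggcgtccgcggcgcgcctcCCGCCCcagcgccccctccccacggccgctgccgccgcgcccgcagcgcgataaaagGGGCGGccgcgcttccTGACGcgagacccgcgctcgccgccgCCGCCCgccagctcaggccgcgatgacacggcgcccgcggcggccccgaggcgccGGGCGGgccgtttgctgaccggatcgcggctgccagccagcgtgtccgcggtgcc
Pde12: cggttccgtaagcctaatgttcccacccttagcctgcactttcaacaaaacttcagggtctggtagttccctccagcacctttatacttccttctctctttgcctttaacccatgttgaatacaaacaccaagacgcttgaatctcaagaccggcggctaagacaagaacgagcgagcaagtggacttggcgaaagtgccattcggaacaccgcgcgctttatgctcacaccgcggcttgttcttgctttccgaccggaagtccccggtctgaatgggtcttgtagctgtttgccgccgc

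The 5 windows differ in base composition. The Pde8a window had a GC content of 81.0% with 58 CpG dinucleotides, 4 GC boxes and a TGACG whose first base lies 86 bases before the start. The Adcy9 window held 40 CpG at 74.0% GC and a TGACG 60 bases before the start, and the Adcy5 window 29 CpG at 70.7% GC with 4 GC boxes. Adcy4 (59.0% GC, 12 CpG) and Pde12 (52.3% GC, 19 CpG) held neither motif. Whether the RefSeq start and the start used in the annotation are the same base was not tested.

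Over the families, 21 of 31 cyclase and catalytic phosphodiesterase genes had RefSeq windows, 33 in all. Searched on both strands, the full cAMP response element TGACGTCA was in 0 of 33 windows, against 1.83% of all 33469 windows in the table. TGACG, which the full element contains, was in 8 of 33 (24.2%, against 21.2%), GGGCGG in 16 of 33 (48.5%, against 33.1%) and TATAAA in 0 of 33 (against 14.2%). Among the 21851 windows of protein-coding genes, the closer reference, the shares were 2.10% for TGACGTCA, 23.5% for TGACG, 41.8% for GGGCGG and 13.0% for TATAAA. The 8 windows of the 6 genes with a peak within 1000 bp of a start had a median of 20 CpG, the 25 windows of the other 15 genes a median of 10, windows of protein-coding genes a median of 11 and all windows a median of 7. These matches describe letters and say nothing of factor binding.

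Counted by genes, synthesis and breakdown had shares close to each other, with wide intervals. Of 10 cyclase genes in the rat gene table, 5 had a peak (50%, 95% Clopper-Pearson interval 18.7 to 81.3), and of 21 catalytic phosphodiesterase genes, 11 had one (52.4%, 29.8 to 74.3). All 36 table genes that match the name rule gave 19 with a peak (52.8%, 35.5 to 69.6), where 27.1% of 23154 protein-coding genes had one. A table gene whose name the peak annotation lacks cannot count as having a peak. The 27.1% may thus be low as a reference, and gene length was not matched. These intervals cover counting error only, and genes of 1 library are not replicates.

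The medians of peak strength lay within each other's intervals. Fold enrichment had a median of 4.09 over the 24 cyclase peaks (interval of the median 3.66 to 4.71) and 4.12 over the 66 phosphodiesterase peaks (3.94 to 4.38). Over all 98 peaks the median was 4.10 with quartiles of 3.72 and 4.77, and over the 28608 peaks of other names it was 4.13 with quartiles of 3.62 and 4.79. A fold enrichment of at least 6 was reached by 4 of the 98 peaks (4.08%), where 6.31% of all peaks reached it. Those 4 belong to Pde4b, Adcy6 and Pde4dip (2 peaks).

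**Figure D1:**
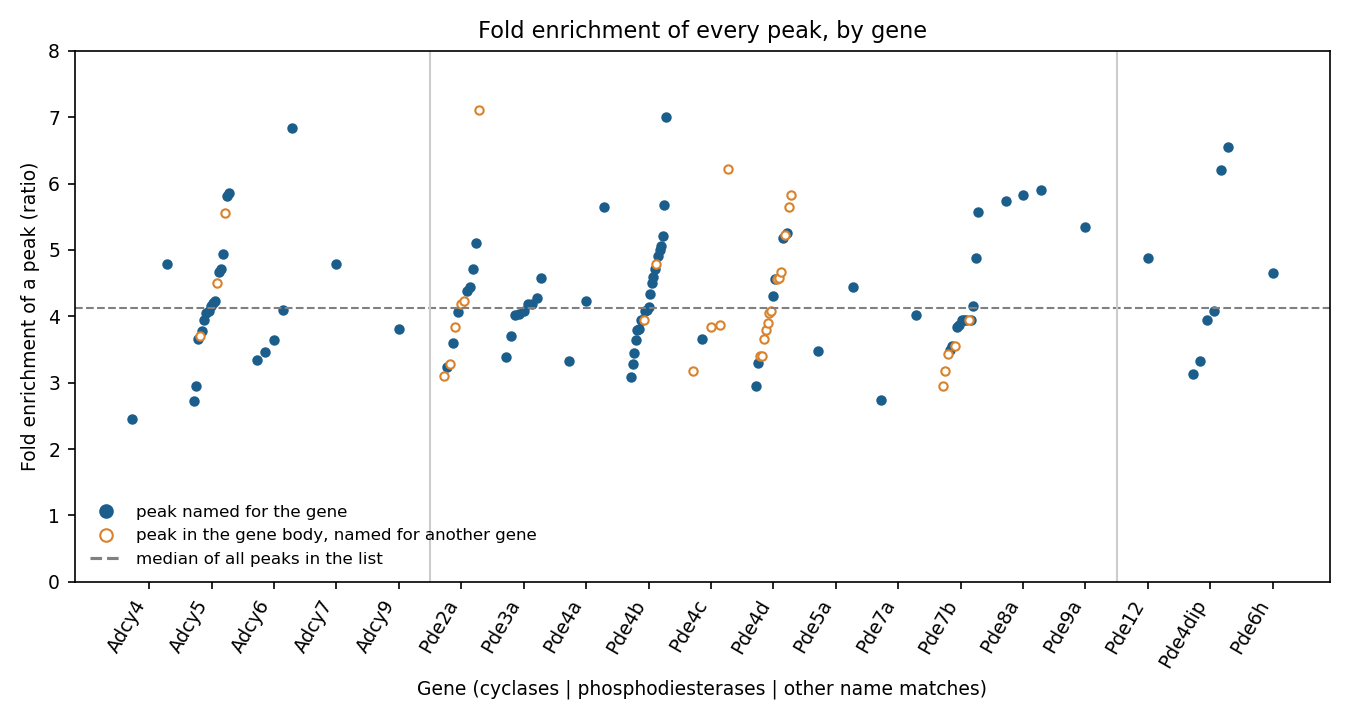
Fold enrichment (ratio, linear axis from 0) of every peak by gene, with cyclases on the left, phosphodiesterases in the middle and the 3 other name matches on the right. Filled points are peaks named for the gene, open points are peaks inside its transcripts that carry another gene's name, horizontal offsets within a gene only separate points, and the dashed line is the median of all peaks, 4.13. The filled points reach 7.0 in Pde4b and 6.84 in Adcy6, and an open point in Pde2a reaches 7.10.

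The peaks were spread unevenly over the cyclases. Adcy5 and Adcy6, the calcium-inhibited enzymes that are the main cyclases of the cardiomyocyte, carried 20 of the 24 cyclase peaks. The calcium-stimulated enzymes Adcy1, Adcy3 and Adcy8 carried none, and neither did Adcy2 or the soluble, bicarbonate-sensitive Adcy10.

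Adcy5 had 15 peaks on chromosome 11, with fold enrichments from 2.73 to 5.85 and a median of 4.15. Of these, 14 lay in intron 1 of a transcript with 20 introns, and 1 lay in an exon, 444 bp after the start (4.71-fold). A run of 9 peaks with gaps under 5 kb spanned 13.5 kb at chr11:68805575-68819121, of which the peaks covered 3.44 kb. It held the strongest pair. These were 5.85-fold at chr11:68811906-68812434, 30.1 kb after the start, and 5.82-fold at chr11:68808654-68809368. The others among the 5 strongest were 4.94-fold at 28.5 kb and 4.67-fold at 35.9 kb, beside the exon peak. The mark was thus called in a run of separate peaks deep in the first intron, in addition to a call at the start.

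Adcy6 had its mark at the start itself. Its promoter peak at chr7:140290816-140291338, centred 281 bp upstream, had a fold enrichment of 6.84 and a −log10 q of 10.6. The other 4 peaks, at 773 bp, 2.62 kb, 3.46 kb and 7.29 kb downstream, had 4.10, 3.64, 3.35 and 3.46-fold enrichment. All 5 formed 1 run of 7.94 kb, 3 of the 4 downstream peaks in intron 1 and the last in intron 2.

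The remaining cyclases had few peaks. Adcy4, an isoform stimulated by G beta-gamma subunits, had a 4.79-fold peak in intron 1 at 218 bp (chr15:34468854-34469411) and a promoter peak of 2.46-fold, the weakest of the 98, 281 bp upstream of a second annotated start. Adcy7, a related isoform, had 1 intergenic peak of 4.79-fold, 22.0 kb upstream. Adcy9, the forskolin-insensitive isoform, had 1 promoter peak of 3.81-fold centred 40 bp after the start (chr10:11393010-11393276).

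Among the phosphodiesterases, those that hydrolyse cAMP alone carried most of the peaks. Of 8 genes of the PDE4, PDE7 and PDE8 families, 7 had a peak (87.5%, interval 47.3 to 99.7), with 47 peaks in all, and Pde8b was the exception. Of 8 genes whose enzymes hydrolyse both nucleotides (PDE1, PDE2, PDE3, PDE10 and PDE11), 2 had a peak (25%, 3.19 to 65.1), with 16 peaks. Of 5 genes of the cGMP-specific families PDE5, PDE6 and PDE9, 2 had a peak (40%, 5.27 to 85.3), with 3 peaks. Against the 27.1% of all protein-coding genes, the share of the genes for both nucleotides was close, that of the cGMP-specific genes had an interval that includes it, and that of the cAMP-specific genes lay above it. The intervals of the 3 groups overlap, and the difference between them was not tested.

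**Figure D2:**
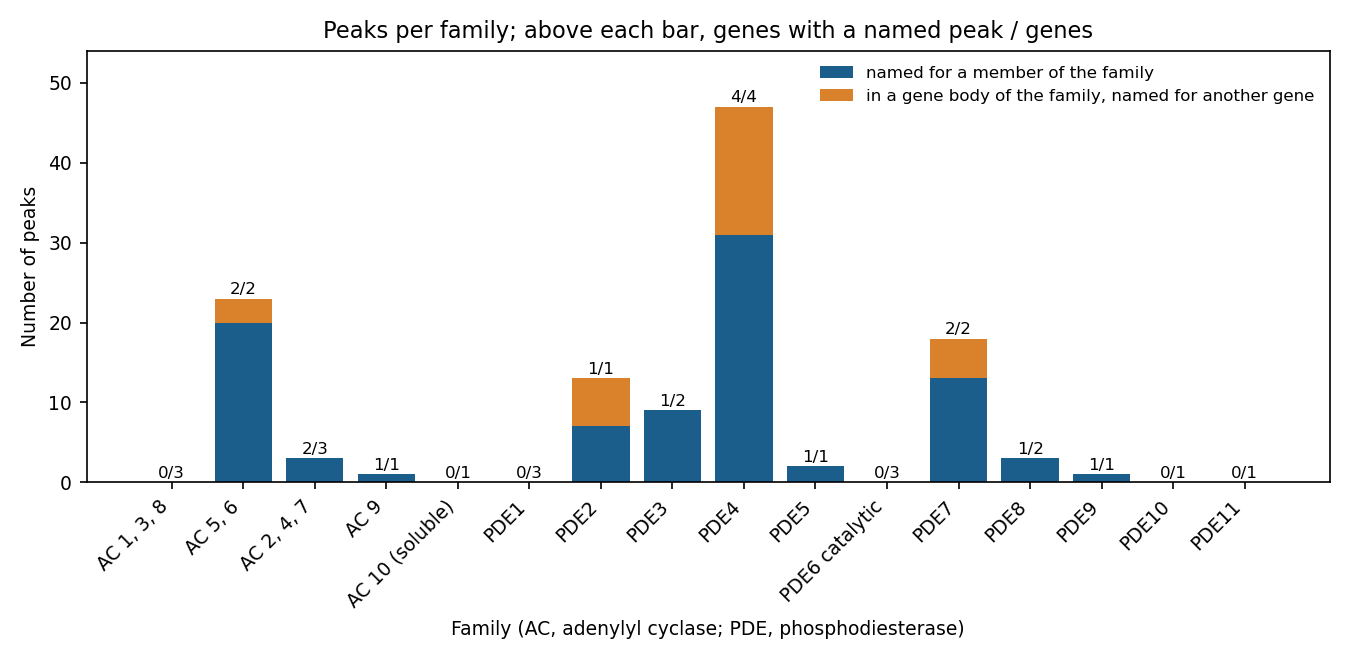
Number of peaks (vertical axis from 0) per family of adenylyl cyclase (AC) and phosphodiesterase (PDE), split into peaks named for a member of the family and 30 peaks inside its genes that carry another name. Numbers above the bars give genes with a named peak over genes in the table. PDE4 has 31 named peaks and the cyclases AC 5 and 6 have 20, while PDE1, catalytic PDE6, PDE10 and PDE11 have none.

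Pde4b, a cAMP-specific enzyme that acts near beta-adrenergic receptors and L-type calcium channels, had 21 peaks over 344 kb of chromosome 5, with fold enrichments from 3.08 to 7.0. The annotation assigned them to 3 start sites spaced 66.3 and 80.8 kb apart, as long PDE4 genes use several promoters to make isoforms with different amino termini. The 5 peaks of the most upstream start (ENSRNOT00000008278) were all intergenic, from 192 to 7.97 kb before it, at 3.94 to 5.21-fold. The next start (ENSRNOT00000068158) had 6 peaks. One of these was in the promoter class, 972 bp upstream, at 4.50-fold, and another was the strongest peak of any name match, 7.0-fold with a −log10 q of 14.4 at chr5:122042974-122044044. That peak lies in intron 4 of 13, 24.2 kb after this start.

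The third Pde4b start (ENSRNOT00000007738) had 10 peaks, and the marks closest to it formed a run of 6 over 6.25 kb at chr5:122098778-122105022. Within that run a promoter peak of 3.64-fold lay 567 bp upstream, an exon peak of 4.10-fold 554 bp downstream, and a peak 1616 bp wide reached 5.68-fold at 4.12 kb. The other 2 of the 5 strongest Pde4b peaks, beside 7.0, 5.68 and 5.21-fold, were 5.06-fold in intron 4 and 5.0-fold at 86.2 kb upstream of the first start. Which start a peak in a shared intron belongs to cannot be told from distance alone.

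Pde4d, the PDE4 gene whose product associates with the ryanodine receptor complex, had 6 named peaks, all in introns, at 2.95 to 5.25-fold. The strongest pair, 5.25-fold at chr2:41230574-41230804 and 5.18-fold at chr2:41229852-41230364, lay 72.9 and 72.3 kb after the start. They were in intron 1 of a transcript with 14 introns. The others had 4.55, 4.30, 3.29 and 2.95-fold enrichment, and none of the 6 lay within 1 kb of a start. The 3.29-fold peak lay 127 kb upstream of the start used here, in intron 4 of a transcript with 18 introns. Intron numbers in Pde4d therefore depend on the isoform. Pde4a had 3 peaks, all in intron 1 between 14.7 and 18.5 kb after the start, of 5.65, 4.23 and 3.33-fold. Pde4c had 1 peak, 3.66-fold in intron 2.

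Pde7a and Pde7b encode cAMP-specific enzymes of high affinity, and their marks were laid out differently. Both Pde7a peaks were in the promoter, 217 and 741 bp upstream, at 4.02 and 2.73-fold. Pde7b had 11 peaks over 244 kb of chromosome 1, and its strongest, 5.57-fold, was centred 274 bp after the start at chr1:16203229-16203899. A run of 4 peaks spanned 2.49 kb there, of which the peaks covered 1.57 kb. The next in strength, 4.88-fold and 4.16-fold, lay 113 and 122 kb into the gene, followed by 3.95-fold at 2.33 kb. Next came 3 peaks of equal 3.94-fold, at 1.77, 162 and 163 kb, and the other 4 Pde7b peaks were between 3.49 and 3.87-fold.

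Pde8a, another cAMP-specific enzyme of high affinity, had a compact pattern. Its 3 peaks were of 5.74, 5.90 and 5.83-fold, 2.16 kb and 973 bp before and 377 bp after the start, and together spanned 3.40 kb at chr1:143033864-143037267. All 3 exceeded the upper quartile of peaks of other names, 4.79, and the middle one had a −log10 q of 13.5. Pde8b had no peak.

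Of the enzymes that hydrolyse both nucleotides, Pde2a and Pde3a accounted for all 16 peaks, every one of them in an intron. Pde2a, which cGMP activates, had 7 peaks of 3.24 to 5.11-fold in a single run of 10.1 kb from 516 bp to 10.3 kb after a start, at chr1:166564966-166575106. The 5 strongest had 5.11, 4.71, 4.44, 4.38 and 4.07-fold enrichment. Pde3a, the cGMP-inhibited enzyme that is the target of milrinone, had 9 peaks, all in intron 1. They were spread from 1.04 to 106 kb after the start at 3.38 to 4.58-fold, with the 4.58-fold peak at 63.5 kb. Its next 4 were of 4.28, 4.18, 4.18 and 4.07-fold. Pde3b, Pde10a, Pde11a and the calcium-calmodulin-stimulated Pde1a, Pde1b and Pde1c had none.

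Of the cGMP-specific enzymes, Pde9a had 1 peak of 5.35-fold, 1168 bp wide, in intron 4, 46.7 kb after the start. Pde5a, the target of sildenafil, had a peak of 3.48-fold in intergenic sequence, 1.64 kb upstream, and one of 4.44-fold in intron 9, 81.6 kb downstream. The photoreceptor genes Pde6a, Pde6b and Pde6c had none.

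The 3 other name matches had 8 peaks. Pde4dip had 6, among them 6.54-fold at 12.8 kb and 6.20-fold at 234 bp after a start, both in intron 1, followed by 4.07, 3.94, 3.33 and 3.14-fold. Pde12 had 1 promoter peak of 4.88-fold at 35 bp, and Pde6h 1 intergenic peak of 4.65-fold at 8.90 kb. Pde6d and Pde6g had none.

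**Figure D3:**
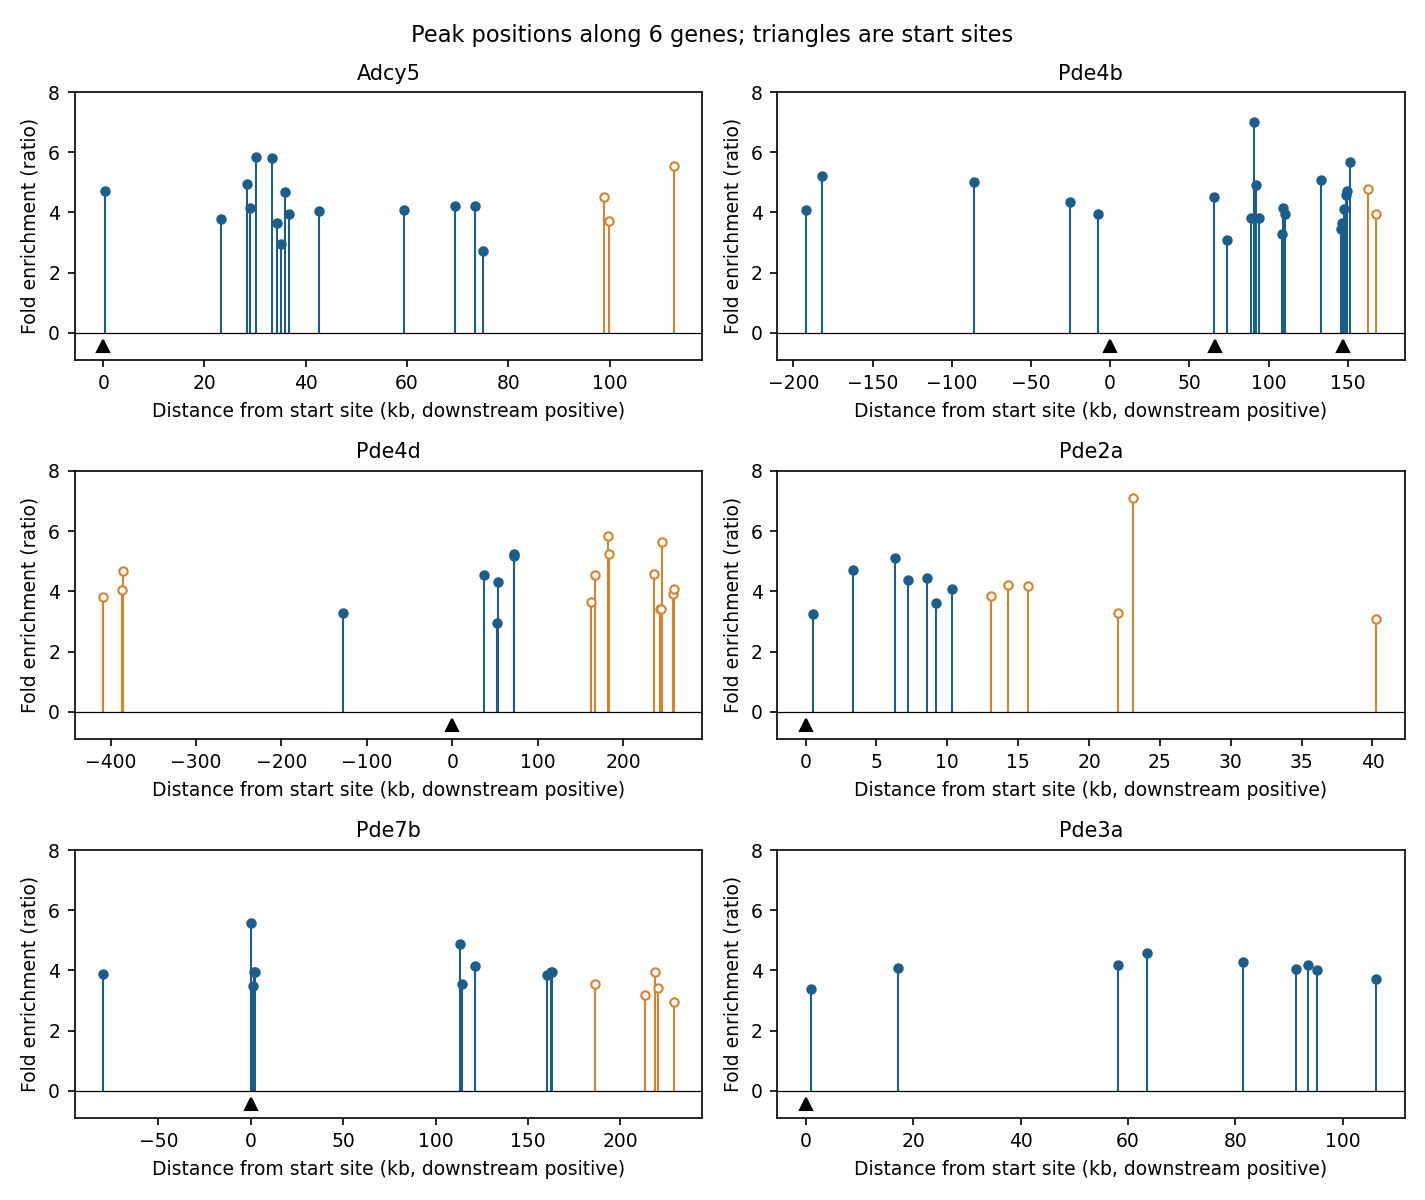
Position of each peak as distance from a start site (kb, downstream positive) against fold enrichment (ratio) in Adcy5, Pde4b, Pde4d, Pde2a, Pde7b and Pde3a. Filled points are peaks named for the gene, open points are peaks inside its transcripts under another name (for Pde4d these include 3 near Mir582 found through the detailed annotation), and triangles are start sites named in the annotation. The run in intron 1 of Adcy5, that of 7 peaks after the Pde2a start and the 3 start sites of Pde4b are visible.

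By position, the cyclase and phosphodiesterase peaks lay mostly inside the genes. Introns held 76 of the 98 peaks (77.6%, 68.0 to 85.4), against 43.7% of the peaks of other names, and intergenic sequence held 11 (11.2%, 5.74 to 19.2), against 41.2%. The share in introns was 79.2% (57.8 to 92.9) for cyclase peaks and 78.8% (67.0 to 87.9) for phosphodiesterase peaks. Of the 76 intron peaks, 46 were in intron 1 (60.5%), against 49.8% of the intron peaks of other names. Intron numbers are those of the transcript named in the annotation, and can differ between isoforms of a gene. No peak named for a member was in the class at transcript ends, which allows a share of up to 3.69% (exact upper limit). A 3.87-fold peak of that class inside Pde4c was filed under Rab3a. Peaks of 1 gene share their locus, so these shares rest on few genes, with Pde4b and Adcy5 giving 36 of the 98 peaks.

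**Figure D4:**
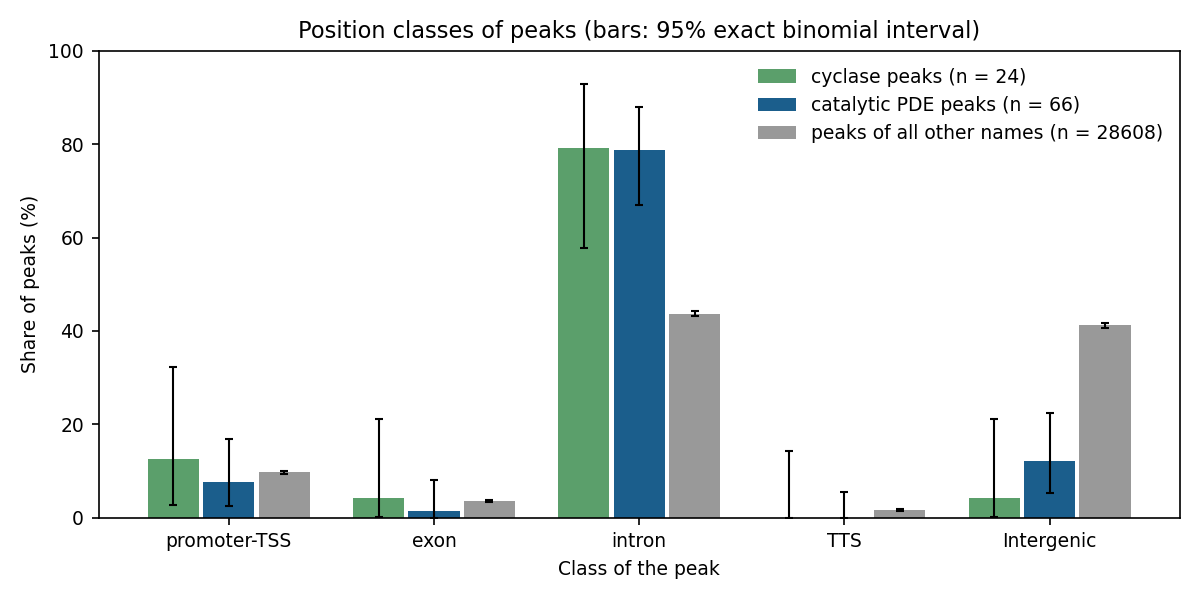
Share of peaks (%) in each position class for 24 cyclase peaks, 66 catalytic phosphodiesterase peaks and 28608 peaks of all other names, with 95% Clopper-Pearson intervals as error bars (counting error only). TSS is the transcription start site and TTS the termination site. Introns hold 79.2% and 78.8% of the 2 families' peaks and 43.7% of the others.

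Genes with a peak at a start are part of those with any peak, so they can only be as many or fewer. A peak of the promoter class, which the annotation gives to peaks close to a start, was called at 7 of the 36 genes (19.4%, 8.19 to 36.0), where 9.88% of protein-coding genes had one. These were Adcy4, Adcy6, Adcy9, Pde4b, Pde7a, Pde8a and Pde12. A peak centred within 1000 bp of a start was called at 11 of 36 (30.6%, 16.3 to 48.1), where 17.1% of protein-coding genes had one. This count added Adcy5, Pde2a, Pde7b and Pde4dip. For both measures the interval includes the share of protein-coding genes. Counted by peaks, 17 of 98 lay within 1000 bp (17.3%, 10.4 to 26.3), against 19.4% of the peaks of other names.

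Several peaks per gene were common. The median was 3 peaks per name, against 2 over all names, and 8 of the 19 had 5 or more (42.1%), against 19.7% of other names. At least 2 peaks were carried by 13 of the 19 (68.4%), against 54.9% of other names. Of the 98 peaks, 67 (68.4%) stood in 19 runs of at least 2 peaks with gaps under 5 kb, in 12 genes. Runs were not counted for peaks of other names, so this share has no reference. The 4 runs of 5 or more were those of Adcy5, Adcy6, Pde2a and Pde4b. Peak width had a median of 374 bp, against 375 bp for other names.

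Naming by the nearest start left part of the peaks inside these genes under other names. When a peak in an intron, exon or transcript end was given to the gene of the transcript that contains it, 30 further peaks fell in 6 of the genes, and none that carried a member's name was moved away. Of these 30 peaks, 19 were named for gene models of the microRNA type, 2 for a small nuclear RNA and 9 for protein-coding neighbours. Transcripts of genes with no named peak could not be assigned in this way. Among peaks whose own transcript could be assigned, 30 of 96 inside these genes were named for another gene (31.2%, 22.2 to 41.5), against 17.5% of 11879 inside other genes.

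Pde2a gained the strongest of the 30 peaks. Its 6 further peaks carry the name Mir139, a microRNA inside the gene, and the strongest, 7.10-fold with a −log10 q of 11.4 at chr1:166587244-166588231 in intron 2, exceeded every peak named Pde2a (5.11-fold at most). It lies 1.81 kb upstream of the microRNA, whose 2 mature arms are shown because the annotation files the peak under them and not under Pde2a. The sequences are from RefSeq (GRCr8, chr1:165290865-165290886 and chr1:165290901-165290922, plus strand), with the seed, bases 2 to 8, in capitals.
rno-miR-139-5p: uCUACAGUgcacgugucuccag
rno-miR-139-3p: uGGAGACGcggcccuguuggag

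The 2 arms have different seeds. ChIP peaks mark chromatin, so a peak inside the host gene and near the microRNA cannot be assigned to one or the other. With these peaks Pde2a held 13, of which 10 formed a run of 15.8 kb.

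Pde4d gained most in number. Its 10 further peaks, filed under the model AABR07008066.1, lay in intron 5 and reached 5.83-fold at chr2:41339747-41340590 and 5.64-fold at chr2:41403192-41403415, above the strongest named Pde4d peak. With them Pde4d had 16 peaks, and 19 with 3 more filed under Mir582 in an upstream intron. Pde4c went from 1 to 5 peaks through 4 filed under Rab3a, the strongest 6.21-fold in intron 2 at chr16:20447626-20448870. Pde7b gained 5 in intron 2 filed under Bclaf1 (2.95 to 3.95-fold), Adcy5 gained 3 in introns 3 and 4 (5.56, 4.51 and 3.70-fold), and Pde4b gained 2 in intron 5 (4.79 and 3.94-fold). With gene bodies counted, Pde4b held 23 peaks, Adcy5 18, and Pde4d and Pde7b 16 each.

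Around the cyclases and phosphodiesterases, 52 other genes of the pathway were listed, and 32 of them had a peak (61.5%, where 27.1% of protein-coding genes had one), 10 of the 52 in the promoter class (where 9.88% of protein-coding genes had one). Their 108 peaks had a median of 4.09-fold. Upstream of the cyclases, 5 of 7 G protein alpha subunits had a peak (71.4%, interval 29.0 to 96.3). The strongest was at Gnai2, which inhibits cyclases (6.14-fold, 1.25 kb after the start). Gnal and Gnaz had none.

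Downstream of cAMP, 5 of 9 protein kinase A subunits and inhibitors had a peak (55.6%, interval 21.2 to 86.3). That interval includes the 27.1% of all protein-coding genes. The strongest was at the catalytic subunit gene Prkacb (5.72-fold, 35.0 kb upstream). The 4 without one included Pkib, Prkaca and Prkar1b. Of 10 A-kinase anchoring proteins, which anchor the kinase within the cell, 7 had a peak (70%, interval 34.8 to 93.3). Akap6 of the nuclear envelope led (6.24-fold in an intron, 175 kb after the start), and Akap5, Akap8 and Akap9 had none. Of 5 EPAC and Popeye genes, 4 had a peak (80%, interval 28.4 to 99.5), led by Popdc2 (5.92-fold in an exon), and Popdc3 had none.

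The CREB-type factors that carry cAMP signals to transcription, with their coactivators, had a peak at 7 of 9 genes. Crem, whose ICER products repress cAMP-responsive genes, led with 7.54-fold, 9.14 kb upstream, and Crebbp and Crtc1 had none. On the cGMP side, 4 of 10 guanylyl cyclases had a peak, led by Npr2, the receptor for C-type natriuretic peptide (5.30-fold at the promoter). That share of 40% has an interval of 12.2 to 73.8, which includes the 27.1% of all protein-coding genes. The 6 without one included the nitric oxide receptor subunits Gucy1a1, Gucy1a2 and Gucy1b1. Both cGMP-dependent kinases, Prkg1 and Prkg2, had none (0%, interval 0 to 84.2). The intervals of the lists on the cAMP and cGMP sides overlap, and no difference between them was tested.

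**Figure D5:**
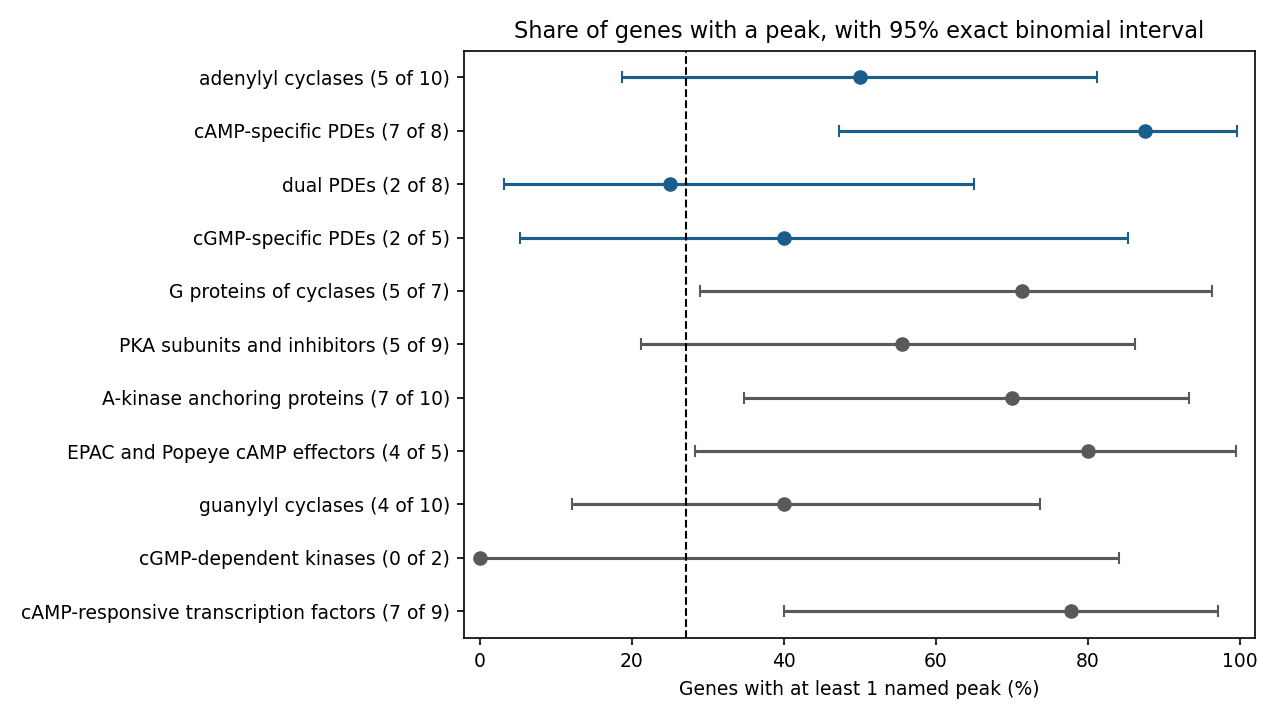
Share of genes (%) with at least 1 named peak for the cyclases, the 3 substrate groups of phosphodiesterases (blue) and 7 lists of pathway genes (grey), with the numbers of genes in brackets. Bars are 95% Clopper-Pearson intervals (counting error only), and the dashed line is the 27.1% of all protein-coding genes with a peak. The cAMP-specific phosphodiesterases lie at 87.5% and the cGMP-dependent kinases at 0%, with wide intervals for such short lists.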

How the data were processed

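ChIP-seq peaks of 1 library from rat myocardium were analysed. The submitters' processing notes list, for build rn6, MACS2 and HOMER besides Bowtie2, SAMtools, FastQC, deepTools and Trim Galore. No version or setting is given in the sources used here. Fold enrichment is a ratio deposited by the authors. The p and q values were deposited by the authors as −log10 values. The score deposited by the authors is −log10 q multiplied by 10 and rounded down, for each of the 28706 peaks. The list holds q values up to 0.0493, and its threshold is 0.05 per the file headers. Peak names carry 1 sample name, so peaks were taken as called on 1 library. The role of the input library in the call is not stated. Sequencing depth is unknown.

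Names were taken from the annotation, which gives each peak the gene with the nearest start. Of the 8094 names, 6273 matched a protein-coding symbol of the RefSeq gene table (GRCr8), used for names and for the background of 23154 genes, and 206 peaks had no gene name. All positions of peaks are 1-based rn6 coordinates. Shares have 95% Clopper-Pearson intervals and medians have order-statistic intervals, both for counting error only. No test was made, because 1 library allows none. Counting was tested on simulated data with planted members. Python 3.11.15, pandas 2.3.3, scipy 1.17.1, numpy 2.4.6 and matplotlib 3.10.9 were used.

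The members, pathway lists and marker lists were chosen with earlier results of these data known. By rule, the text gives the strongest peak of each gene, all peaks of genes with 5 or fewer, and the 5 strongest and the promoter peaks of genes with more. Of each pathway list it gives the strongest gene and up to 3 names without a peak. The examples given from gene-body assignment were chosen after their values were seen. Alternatives were a −log10 q of at least 5, a fold enrichment of at least 4, a centre within 100 kb of the start, assignment by gene body, leaving out Pde4b, leaving out the names that are no catalytic subunit, and other limits for a peak near a start. Protein sequences were not analysed here.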

Additional observations from a re-analysis of the deposited data

How the results depend on the processing

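Across 9 results and 65 alternative values, 59 were labelled unchanged and 6 moved. For counts and shares, unchanged meant within the counting interval or within 1.5 times the reported count. The differences of medians are not counts, so this limit does not describe them, though all their alternatives were labelled unchanged. Some of the 59 could not have moved. Gene-body assignment can add no gene that lacks a named peak. Leaving out Pde4b or the names that are no catalytic subunit cannot change the cyclase count. The count of 59 is therefore no measure of stability. With a −log10 q of at least 5, the 98 peaks became 29, the 11 phosphodiesterase genes with a peak became 7 and the 7 genes with a promoter peak became 3. With a fold enrichment of at least 4, 59 peaks remained. Genes with a peak near a start numbered 11 within 1000 bp and 13 within 3000 bp. The stricter settings keep fewer peaks by construction. At the stricter q, Adcy9, Pde3a, Pde4c, Pde5a, Pde6h and Pde7a had no peak left, and at a fold enrichment of at least 4, Adcy9 and Pde4c had none. Gene-body assignment gave 128 peaks, and 131 when transcripts were also paired through the detailed annotation, a setting chosen after seeing the data. The median fold enrichment of cyclase minus phosphodiesterase peaks was -0.0299. It took the opposite sign at the stricter q (0.156), at the fold minimum (0.124), with gene bodies (0.0250) and without Pde4b (0.0121). No interval is given for this difference, and its sign depends on the setting. The share of peaks in introns ranged from 76.3% to 82.4%. No paired analysis was possible because the input library had no values here. Depth limits what the absence of a peak can show.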

Other observations

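Fold enrichment values recurred between peaks, with 1838 distinct values over the 28706 peaks. The 98 peaks had 80 different values, and 95 of them shared their value with at least 1 other peak of the list. The most common value, 3.94, stood on 606 peaks of the list and on 6 of the 98.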
